A study of Mus musculus with 6 samples.

Results

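The genes studied here carry fatty acids into the heart muscle cell, burn them in mitochondria and store them as triglyceride. They number 36, chosen by symbol from a fixed list covering uptake, the carnitine shuttle, mitochondrial beta-oxidation, the electron transfer flavoprotein and lipid droplets. All 36 were present among the 24972 rows of the deposited table. RNA came from cardiomyocytes of 3 MX1gfp mice given phosphate buffered saline (vehicle) and 3 MX1gfp mice given doxorubicin, an anthracycline cancer drug with cardiac toxicity. Doxorubicin was given once, into the peritoneum, at 25 mg per kg, and hearts were taken 48 hours later. All 6 mice carried the MX1gfp reporter, so no library shows the response without it. Myocytes of the digested ventricles were settled by gravity, and no sorting step is described. The labels give neither sex nor age.

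The heart draws most of its energy from fatty acids. Lipoprotein lipase at the capillary wall frees them from triglyceride, CD36 and fatty acid transport proteins bring them into the cell, and acyl-CoA synthetase traps them as acyl-CoA. The carnitine shuttle carries the acyl groups across the inner mitochondrial membrane, where rounds of dehydrogenation, hydration, a further oxidation and thiolysis shorten the chain and release acetyl-CoA. Electrons from the acyl-CoA dehydrogenases reach the respiratory chain through the electron transfer flavoprotein. Fatty acids that are not burned are esterified into lipid droplets and released again by lipases. Many of these genes are targets of PPAR and ERR nuclear receptors with the coactivator PGC-1.

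The authors deposited a normalized read count for each gene, and sets of 3 values below are in the order of replicates 1, 2 and 3. The values summed to between 7217172 and 7499707 in the vehicle libraries and between 5410123 and 6497696 in the doxorubicin libraries. With the commonest low value of each library taken as the worth of 1 read, the reads behind the values came to about 7690000 to 11460000 per vehicle library and 3660000 to 6190000 per doxorubicin library, so each doxorubicin library was shallower than each vehicle library. Depth and treatment therefore cannot be told apart. The lowest of the 36 genes, Dgat1, rested on an estimated 65.9 to 211 reads per library. Doxorubicin replicate 1 lay closer to the vehicle libraries (Spearman correlations across genes of 0.977 to 0.982) than replicate 2 (0.896 to 0.914) or replicate 3 (0.860 to 0.876). Results are given with and without replicate 1. Leaving out the doxorubicin library nearest to vehicle favours larger differences and smaller p-values. Passing a test only without replicate 1 is therefore a description and not added support. Vehicle replicate 3 and doxorubicin replicates 1 and 3 contained Xist, whereas the other 3 libraries contained Y-linked transcripts. The contractile genes that define cardiomyocytes were abundant in all libraries but summed to 814080.0 to 924072 normalized counts in vehicle and 223752 to 691107 in doxorubicin libraries. The 10 endothelial markers summed to 14029 to 18052 and 23158 to 28834, the 10 macrophage markers to 2583 to 2791 and 4238 to 15615, and the 6 neutrophil markers to 10.5 to 21.7 and 55.0 to 563. The 10 fibroblast markers summed to 7279 to 9777 and 10073 to 24998. Dcn alone made up 2446 to 2905 and 3113 to 18072 of these sums, and 6 of the 10 markers overlapped between groups. The 8 mural cell markers all overlapped, with 3 higher and 5 lower (median log2 difference -0.22). Doxorubicin replicate 1 also had the highest sums of erythroid markers (9027, against 1212 to 2105 with vehicle) and of atrial markers (1431 against 456 to 526). The part of these differences in the results below was not tested. In such a mixed RNA, fewer cardiomyocytes and less of a transcript per cardiomyocyte cannot be told apart.

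Fatty acid genes as a group were lower after doxorubicin. Of the 36 genes, 33 had a negative log2 fold change and 3 (Cd36, Lipe and Pnpla2) a positive one. The median was -0.84 on the log2(value + 1) scale, against -0.0046 over the 12475 genes tested, of which 50.4% were negative and 49.6% positive. Scaling the libraries to equal totals, which moved the median of all genes to 0.29, gave 32 negative members with a median of -0.54, and quantile normalization gave 32 with a median of -0.58. In 29 genes all 3 doxorubicin libraries lay below all 3 vehicle libraries, which held for 22.6% of all genes tested. Quantile normalization left 24 such genes, with Acsl1, Cpt1b, Acadvl, Hadha and Ech1 overlapping, and equal totals left 27. The 22.6% is for the deposited values, and the share of all genes was not computed for these scalings. Lipe was the single member with all doxorubicin libraries above all vehicle libraries (19.2% of all genes). Among genes with a mean of at least 1000 normalized counts, where 46.5% lay apart on the lower side, 25 of 29 members did so. All 3 doxorubicin libraries also lay below all 3 vehicle libraries in 71 of 75 respiratory chain and ATP synthase genes (median -0.91) and 16 of 20 contractile genes (median -1.19).

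No member passed limma's test at a Benjamini-Hochberg adjusted p of 0.05 over all genes with all 6 libraries (0 of 36, background 0.00% higher and 0.00% lower). The smallest adjusted p of any gene was 0.086. At an unadjusted p under 0.05, 30 members were lower and 1 was higher, against 19.3% and 16.7% of all genes. At an adjusted p under 0.10, 24 members were lower and 1 was higher, against 13.1% and 11.1% of all genes. Without doxorubicin replicate 1, 29 members fell and 1 rose at an adjusted p under 0.05, against 21.8% and 19.3% of all genes, and the members' median was -1.04. Among genes with a mean of at least 1000, 43.0% fell in that fit. The 6 genes that did not pass even then were Lpl, Cd36, Slc27a1, Acot2, Pnpla2 and Dgat1.

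The doxorubicin libraries differed from each other more than the vehicle libraries did. The median member lay -0.41, -0.69 and -1.41 from the vehicle mean in doxorubicin replicates 1, 2 and 3. Replicate 3 was the lowest of all 6 libraries in 32 of the 36 genes. In 26 of the 29 genes with separate groups, replicate 1 was the highest and replicate 3 the lowest doxorubicin library. Over those 29 genes the coefficient of variation had a median of 6.22% with vehicle and 35.9% with doxorubicin, and it was higher with doxorubicin in all 29. Their doxorubicin means were 47.2% to 74.9% of the vehicle means. Outside those 29, Lpl (21.6% with vehicle, 14.4% with doxorubicin) and Slc27a1 (18.5% and 14.5%) varied less with doxorubicin. The wider spread was not limited to the members. Spearman correlations across genes were 0.986 to 0.989 between vehicle libraries and 0.912 to 0.952 between doxorubicin libraries. Shares of all genes were not computed for the counts in this paragraph.

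**Figure D1:**
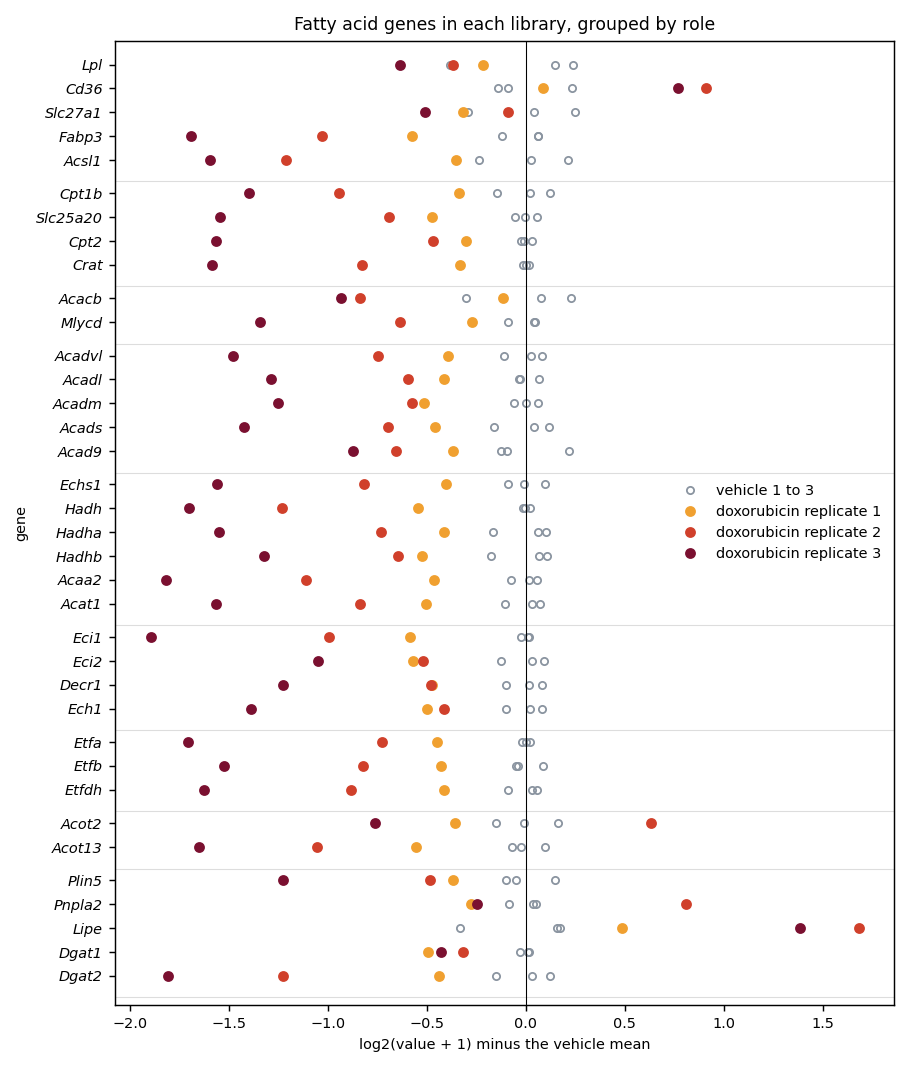
Each row is a gene and each point a library, placed by log2(value + 1) minus the mean of the 3 vehicle libraries, with genes grouped by role. Most filled doxorubicin points lie left of the open vehicle points in the order replicate 1, 2, 3, while Cd36, Lipe, Pnpla2 and Acot2 reach their highest value in doxorubicin replicate 2.

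**Figure D2:**
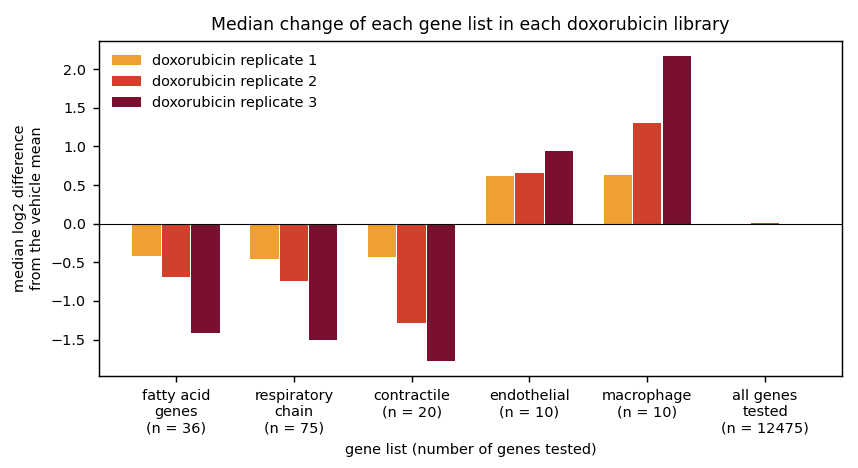
Bars give the median log2 difference from the vehicle mean over the genes of each list, for doxorubicin replicates 1 to 3. The fatty acid genes (-0.41, -0.69 and -1.41) and the respiratory chain genes (-0.46, -0.74 and -1.51) have bars of similar height, and endothelial and macrophage markers lie above 0.

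Uptake and activation held the members with the highest levels per transcript length, Fabp3 and Lpl, and 2 of its 5 genes were lower without overlap. Fabp3, the cytosolic fatty acid binding protein of heart muscle (chromosome 4, 130308738 to 130315463, GRCm38), had values of 30839, 30886 and 27203 with vehicle against 19891, 14519 and 9175 with doxorubicin. Each doxorubicin library was below each vehicle library. The group mean went from 29643 ± 2113 to 14528 ± 5358 normalized counts (SD, n = 3), a log2 difference of -1.10 (SE 0.39, limma adjusted p 0.098). Acsl1, which makes long-chain acyl-CoA, had values of 6844, 8219 and 9367 (vehicle) and 6329.7, 3489 and 2671 (doxorubicin). Its groups did not overlap, although doxorubicin replicate 1 lay just under the lowest vehicle library, and the difference was -1.05 (SE 0.34, limma adjusted p 0.0878). With doxorubicin replicate 1 left out, Fabp3 fell by 1.36 and Acsl1 by 1.40 on the log2 scale (limma adjusted p 0.0129 and 0.00262). The groups of Acsl1 overlapped after scaling to equal totals and after quantile normalization, which left differences of -0.50 for Fabp3 and -0.60 for Acsl1.

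Cd36, the membrane fatty acid translocase (chromosome 5, 17781690 to 17888959), had a positive difference. Its values were 16766, 21749.6 and 17348 in the vehicle hearts and 19619, 34732 and 31547 in the treated hearts. Doxorubicin replicates 2 and 3 exceeded every vehicle library, whereas replicate 1 lay within the vehicle range. The log2 difference of 0.59 (SE 0.38, limma adjusted p 0.284) did not pass, and neither did the 0.84 found without replicate 1 (adjusted p 0.0659). With equal totals or quantile normalization (difference 1.40), all doxorubicin libraries were above all vehicle libraries. Cd36 is also made by endothelial cells and macrophages, whose marker lists were higher after doxorubicin (9 of 10 and 10 of 10 genes, medians 0.77 and 1.57). Their part in the Cd36 values was not tested.

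Lpl, the lipoprotein lipase that cardiomyocytes secrete (chromosome 8, 68880555 to 68906932), had values of 37998, 54798 and 58326 with vehicle against 42689, 38347 and 31912 with doxorubicin. The groups overlapped through vehicle replicate 1, the lowest vehicle library. The log2 difference was -0.41 (SE 0.45, limma adjusted p 0.53), within the spread, and quantile normalization turned it to 0.84 (adjusted p 0.191). Lpl was ranked 9 to 13 among all genes of the vehicle libraries, 9 in doxorubicin replicate 1 and 2 in replicates 2 and 3. Slc27a1, a fatty acid transport protein with acyl-CoA synthetase activity, also overlapped, at 1068 ± 197 to 859.7 ± 125 normalized counts (log2 difference -0.31, SE 0.19, limma adjusted p 0.28).

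**Figure D3:**
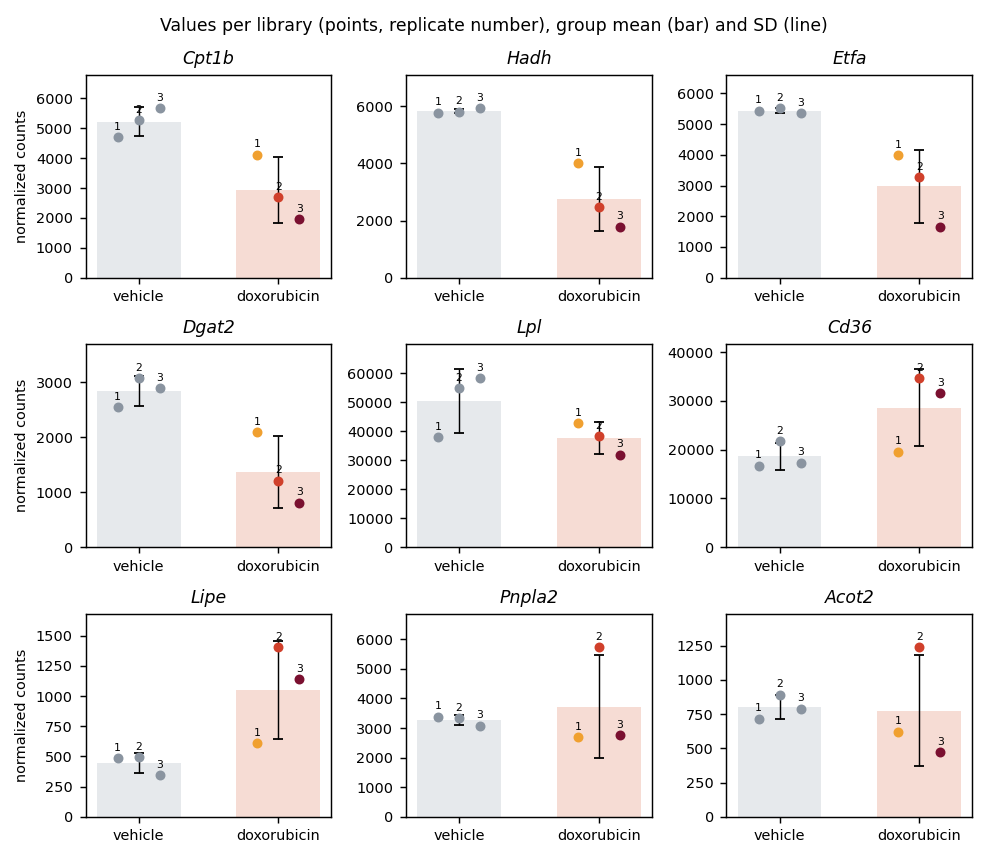
Normalized counts of 9 genes in each library, with points numbered by replicate, bars for the group mean and lines for the SD (n = 3). Cpt1b, Hadh, Etfa and Dgat2 are lower in every doxorubicin library, Lipe is higher in every one, and Pnpla2 and Acot2 stand above the vehicle range in doxorubicin replicate 2 alone.

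All 4 carnitine shuttle genes were lower in every doxorubicin library than in any vehicle library. Cpt1b, the muscle form of carnitine palmitoyltransferase on the outer mitochondrial membrane and the gate of the pathway (chromosome 15, 89416405 to 89425862), had values of 4711, 5276 and 5667 (vehicle) and 4123, 2702 and 1973 (doxorubicin). Doxorubicin replicate 3 held the lowest value. The log2 difference was -0.89 (SE 0.29, limma adjusted p 0.0878). Slc25a20, the carnitine-acylcarnitine carrier, differed by -0.90, Cpt2, the inner membrane transferase, by -0.78, and Crat, carnitine acetyltransferase, by -0.92, with adjusted p of 0.086, 0.127 and 0.0944. Each of the 4 fell past the threshold once doxorubicin replicate 1 was left out, by 1.02 for Cpt2 to 1.21 for Crat. After quantile normalization Cpt1b overlapped, and the differences were -0.56 for Cpt1b and -0.59 for Crat. Crat had a coefficient of variation of 1.11% among vehicle libraries and 40.8% after doxorubicin.

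Malonyl-CoA, the inhibitor of Cpt1b, is made by the acetyl-CoA carboxylase Acacb and removed by the decarboxylase Mlycd, and both had negative differences. Acacb values were 2509.8, 3262 and 3629 in the vehicle hearts and 2859, 1730.4 and 1619 in the treated hearts. Doxorubicin replicate 1 lay inside the vehicle range, so the groups overlapped (log2 difference -0.63, SE 0.27, limma adjusted p 0.137). Mlycd went from 1119 ± 58.6 to 695 ± 244 normalized counts without overlap (log2 difference -0.75, limma adjusted p 0.0979). The log2 ratio of Mlycd to Acacb was -1.47 ± 0.20 in vehicle and -1.59 ± 0.31 in doxorubicin libraries (SD, n = 3, exact two-sided permutation p 0.7), a difference within the spread.

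The 5 acyl-CoA dehydrogenases, which take the opening step of each round and differ in the chain length they prefer, were lower in every doxorubicin library. Acadm, for medium chains (chromosome 3, 153922353 to 153944643), had values of 9499.9, 10337 and 9915 with vehicle against 6947, 6662 and 4166 with doxorubicin. Replicates 1 and 2 were close to each other here and replicate 3 was lower. Acadm differed by -0.78 (SE 0.27, limma adjusted p 0.0974), Acadl for long chains by -0.76, Acadvl for very long chains by -0.87 and Acads for short chains by -0.86. Acad9, whose protein also assembles respiratory complex I, differed by -0.63 (SE 0.18, limma adjusted p 0.086) and was far less abundant. All 5 fell past the threshold in the fit without doxorubicin replicate 1, with changes of -0.76 to -1.11. Quantile normalization made Acadvl overlap and left differences of -0.46 for Acadvl, -0.30 for Acadm and -0.29 for Acadl.

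All 6 genes of the remaining steps of the spiral were lower in every doxorubicin library. Hadh, the 3-hydroxyacyl-CoA dehydrogenase for shorter chains (chromosome 3, 131233419 to 131272101), had values of 5777, 5815 and 5928 (vehicle) and 3999.7, 2483 and 1792 (doxorubicin). The vehicle libraries were nearly equal and each doxorubicin library was lower. Its group mean went from 5840.0 ± 78.7 to 2758 ± 1129 normalized counts (SD, n = 3), a log2 difference of -1.16 (SE 0.30, limma adjusted p 0.086), the largest negative value among the 36 genes. Acaa2, the mitochondrial thiolase, differed by -1.13, Acat1, which cleaves acetoacetyl-CoA, by -0.97, and Echs1, the short-chain hydratase, by -0.93, with adjusted p of 0.086, 0.086 and 0.0863. When doxorubicin replicate 1 was left out, all 6 genes fell past the threshold, by 0.98 for Hadhb to 1.47 for Hadh. Acat1 was reduced to -0.63 by quantile normalization.

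Hadha and Hadhb encode the alpha and beta subunits of the mitochondrial trifunctional protein and lie head to head on chromosome 5. In RefSeq (GRCm38.p6) Hadha is read to the left from 30154980 and Hadhb to the right from 30155253. Hadha values were 12352, 14470.0 and 14840.1 in the vehicle hearts and 10393, 8322 and 4729 in the treated hearts. Hadhb values were 13567, 16053 and 16455 with vehicle against 10636, 9795 and 6123 with doxorubicin. Both genes were lower in each doxorubicin library, by -0.90 and -0.83 (limma adjusted p 0.111 and 0.107). After quantile normalization Hadha overlapped, and the differences were -0.41 and -0.38. The log2 ratio of Hadha to Hadhb was -0.14 ± 0.0081 in vehicle and -0.21 ± 0.17 in doxorubicin libraries (exact two-sided permutation p 0.7). The ratio was thus nearly constant among vehicle libraries and more spread after doxorubicin, from -0.37 in replicate 3 to -0.03 in replicate 1.

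Promoter windows, 250 bases before to 50 after the start, were found in the RefSeq table for 26 of the 36 genes and searched for the nuclear receptor motif AGGTCA on both strands. It was present for 6 members (23.1%: Cd36, Acacb, Acadvl, Acadm, Echs1 and Plin5), against 18.1% of the 27025 symbols with a window. The longer motif AAGGTCA, which contains AGGTCA, was present for 2 members (Acacb and Acadm), against 5.38%. The direct repeat of AGGTCA with 1 base between the copies, known as DR1, was found in 0 of 26 against 0.0481%, and TCAAGGTCA in 0 against 0.466%. These shares are descriptions, and symbols with several starts had several windows. Shown are 85 bases that hold no exon in GENCODE M21, whose Hadha exons reach further than the RefSeq start, within the 272 bases between the RefSeq starts of the trifunctional protein pair, the 250 bases before Acadm and Acadvl as members that were lower and hold the motif, and those before the downstream start of Lipe, the member that was higher. Capitals mark AGGTCA or its reverse complement TGACCT.
Between Hadha and Hadhb, chr5:30155163-30155247, plus strand: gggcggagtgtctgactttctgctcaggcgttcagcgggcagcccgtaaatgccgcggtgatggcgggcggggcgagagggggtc
Acadm, chr3:153944644-153944893, minus strand: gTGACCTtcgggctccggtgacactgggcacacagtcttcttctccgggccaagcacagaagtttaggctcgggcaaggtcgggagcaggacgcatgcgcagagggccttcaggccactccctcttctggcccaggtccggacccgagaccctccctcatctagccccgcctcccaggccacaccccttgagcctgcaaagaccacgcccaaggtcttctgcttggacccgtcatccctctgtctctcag
Acadvl, chr11:70015429-70015678, minus strand: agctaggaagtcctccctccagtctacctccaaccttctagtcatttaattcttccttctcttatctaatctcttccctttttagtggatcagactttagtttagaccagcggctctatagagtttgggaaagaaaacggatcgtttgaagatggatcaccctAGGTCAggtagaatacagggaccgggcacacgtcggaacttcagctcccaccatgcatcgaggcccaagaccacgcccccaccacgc
Lipe, chr7:25390113-25390362, minus strand: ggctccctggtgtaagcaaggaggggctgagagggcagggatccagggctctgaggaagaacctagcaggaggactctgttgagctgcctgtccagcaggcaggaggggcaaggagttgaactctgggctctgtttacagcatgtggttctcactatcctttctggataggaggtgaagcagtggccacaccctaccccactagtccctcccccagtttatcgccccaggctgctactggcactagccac

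The auxiliary enzymes that prepare unsaturated fatty acids for the spiral were all lower without overlap. Eci1, an enoyl-CoA isomerase, had values of 2111, 2107 and 2055 (vehicle) and 1394, 1048 and 562 (doxorubicin). Its difference of -1.16 (SE 0.31, limma adjusted p 0.086) was close to that of Hadh. Eci2, a further isomerase, differed by -0.71, the dienoyl-CoA reductase Decr1 by -0.73 and the dienoyl-CoA isomerase Ech1 by -0.77, with adjusted p of 0.086, 0.0906 and 0.128. All 4 fell past the threshold without doxorubicin replicate 1, Ech1 with an adjusted p of 0.0481. Ech1 overlapped after quantile normalization (difference -0.29), and Decr1 was -0.45 there.

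The electron transfer flavoprotein is a dimer of Etfa and Etfb that hands electrons to the dehydrogenase Etfdh, and the 3 genes were lower by similar amounts. Etfa (chromosome 9, 55454436 to 55512243) had values of 5441, 5513 and 5361 in the vehicle hearts and 3983, 3285 and 1664 in the treated hearts. Etfb had values of 5196, 4738 and 4766 with vehicle against 3639.7, 2767 and 1703 with doxorubicin. In both genes doxorubicin replicate 3 was the lowest library. Differences were -0.96 for Etfa, -0.92 for Etfb and -0.97 for Etfdh (limma adjusted p 0.0927, 0.0863 and 0.0878), and -1.22, -1.17 and -1.25 without doxorubicin replicate 1, each past the threshold. Quantile normalization gave -0.63, -0.62 and -0.64, still without overlap. The log2 ratio of Etfa to Etfb was 0.15 ± 0.08 in vehicle and 0.11 ± 0.14 in doxorubicin libraries (exact two-sided permutation p 0.7).

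The thioesterases, which release free fatty acid from acyl-CoA, split. Acot13 was lower in every doxorubicin library, at 2664, 2448 and 2369 (vehicle) and 1696, 1199.5 and 793 (doxorubicin), a difference of -1.09 (SE 0.27, limma adjusted p 0.086). Acot2, the mitochondrial long-chain enzyme (chromosome 12, 83987861 to 83993877), had values of 716, 892 and 789.9 in the vehicle hearts and 621, 1236 and 469.7 in the treated hearts. Doxorubicin replicate 2 was the highest of the 6 libraries and replicate 3 the lowest, so its groups overlapped. The log2 difference of -0.16 (SE 0.33, limma adjusted p 0.749) was smaller than the spread among doxorubicin libraries and was positive when libraries were scaled to equal totals (0.14). The near-identical cytosolic gene Acot1, 15624 bases away and named here after its values were seen, had values of 172, 198 and 169 with vehicle against 150.1, 663 and 143 with doxorubicin, likewise highest in doxorubicin replicate 2. Reads may be shared between Acot1 and Acot2, so each value is uncertain.

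Of the 5 lipid droplet genes, 3 were lower and 1 higher without overlap, and Pnpla2 overlapped. Dgat2, which adds the last acyl chain of triglyceride (chromosome 7, 99153663 to 99182713), had values of 2549, 3074 and 2889 (vehicle) and 2090.3, 1209 and 809 (doxorubicin). Every doxorubicin library was lower, with a difference of -1.16 (SE 0.33, limma adjusted p 0.086). Dgat1, the other enzyme of that step, was the lowest member and differed by -0.41 (SE 0.15, limma adjusted p 0.0995) without overlap, but its groups overlapped after scaling to equal totals. Plin5, a droplet coat protein that tethers droplets to mitochondria, differed by -0.69 without overlap.

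Lipe, the hormone-sensitive lipase that cleaves diglyceride (chromosome 7, 25379527 to 25398486), was the member with the largest positive difference. Its values were 487, 492 and 346 in the vehicle hearts and 611, 1402 and 1139.6 in the treated hearts. Every doxorubicin library exceeded every vehicle library, replicate 1 least. The group mean went from 442 ± 83.0 to 1051 ± 403 normalized counts (SD, n = 3), a log2 difference of 1.18 (SE 0.31, limma adjusted p 0.086). Without doxorubicin replicate 1 it rose by 1.53 (SE 0.20, limma adjusted p 0.000956). The fat cell markers Adipoq, Plin1, Retn, Lep, Adrb3 and Ucp1 were at 0 to 4.43 normalized counts in all libraries, and Cfd and Cidec at 0 to 11.5. Among the 9 fat cell markers, Fabp4, which endothelial cells also express, was the only other one above that level (5363 ± 1435 to 11986 ± 2419.7 normalized counts). The antisense transcript 4732471J01Rik, which spans Lipe, was listed at 0 to 3.04 normalized counts. Endothelial and macrophage marker lists were higher after doxorubicin (9 of 10 and 10 of 10 genes). The part of those and other cells in the Lipe values was not tested.

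Pnpla2, the adipose triglyceride lipase that acts before Lipe (chromosome 7, 141455188 to 141460743), had values of 3387, 3346 and 3079 with vehicle against 2694, 5724 and 2755 with doxorubicin. It was highest in doxorubicin replicate 2, while replicates 1 and 3 lay below all vehicle libraries. Its log2 difference of 0.09 (SE 0.31, limma adjusted p 0.844) became -0.26 without doxorubicin replicate 2. The log2 ratio of Lipe to Pnpla2 was -2.90 ± 0.22 in vehicle and -1.81 ± 0.47 in doxorubicin libraries, higher in each doxorubicin library (exact two-sided permutation p 0.1, the smallest that 3 against 3 can give, adjusted p 0.267 over 8 ratios).

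Levels per kilobase of transcript showed how unequal the pathway's transcripts were. Transcript lengths were those of the longest principal protein-coding transcript in GENCODE M21. In vehicle libraries Fabp3 was highest at 36018 ± 2568 normalized counts per kilobase (SD, n = 3), followed by Lpl at 12242 ± 2639.6 and Ech1 at 8421 ± 526. Hadhb (7499 ± 764) came next, followed by Etfb (5487 ± 288) and Cd36 (5478 ± 802), and those last levels did not differ beyond their spread. The lowest were Lipe at 122 ± 23.0, Acad9 at 101 ± 13.8 and Dgat1 at 69.7 ± 1.16, a range of 517-fold. After doxorubicin Fabp3 (17653 ± 6510.4) and Lpl (9149 ± 1318) were still the highest, and Cd36 (8424 ± 2344) moved from rank 6 to rank 3, although its spread overlapped that of Lpl. The 36 genes together made up 3.17% to 3.55% of a vehicle library and 2.41% to 3.01% of a doxorubicin library, and without Lpl and Cd36 the shares were 2.41% to 2.51% and 1.23% to 2.02%.

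**Figure D4:**
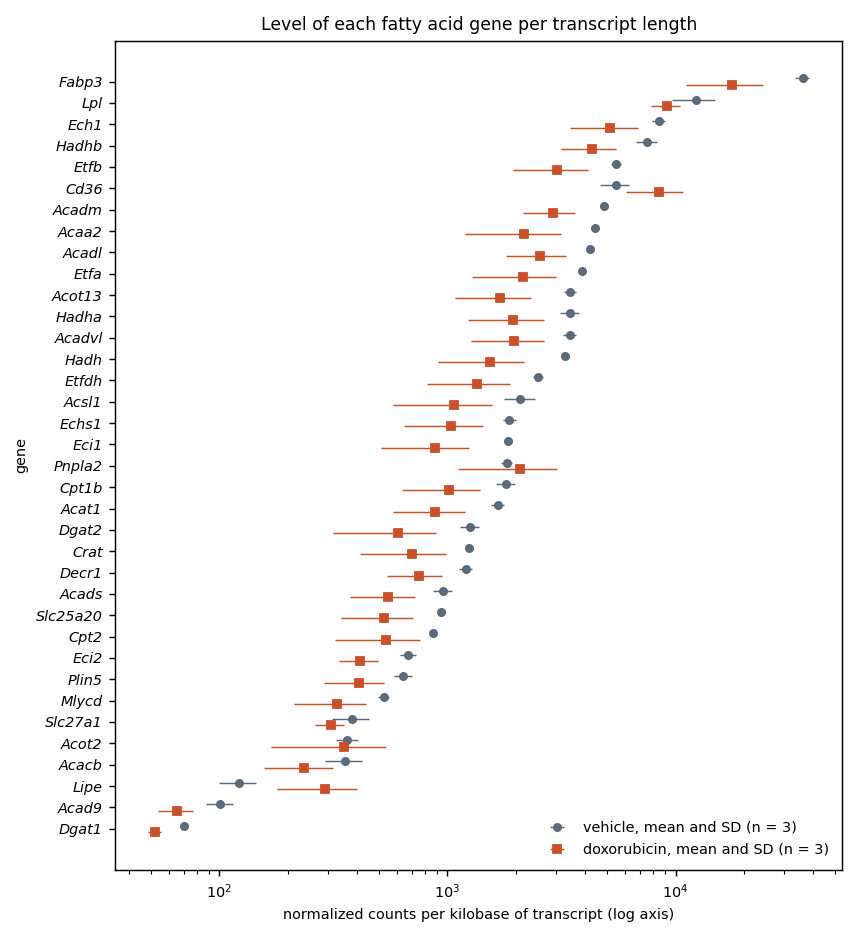
Mean and SD (n = 3) of normalized counts per kilobase of transcript on a log axis, in vehicle (circles) and doxorubicin (squares), with genes ordered by the vehicle level. Levels run from Dgat1 to Fabp3 over a 517-fold range, and Cd36, Pnpla2 and Lipe are the rows with the square to the right.

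Set against respiratory chain genes of the same library, most fatty acid genes overlapped between groups. The log2 value of each member was taken relative to the library's median over 75 nuclear genes of the respiratory chain and ATP synthase. On that scale the groups overlapped in 33 of the 36 genes, 3 were higher in all doxorubicin libraries (Lipe, Cd36 and Pnpla2) and 0 were lower in all. As examples, Cpt1b differed by 0.04, Hadha by 0.04, Etfa by -0.03 and Crat by 0.02 relative to that median. The lowest were Hadh, Eci1 and Dgat2, each at -0.22 and each with overlapping groups. Lipe was 2.12, Cd36 1.52 and Pnpla2 1.03 higher on the same log2 scale. Relative to the median of 20 contractile genes, 33 members also overlapped and 3 were higher in all doxorubicin libraries, namely Lipe (2.31), Cd36 (1.72) and Acacb (0.50). Both reference lists were lower themselves (median log2 differences -0.91 and -1.19, against -0.0046 over all genes tested). A gene that did not change therefore lies higher on these scales, and the share of all genes doing so was not computed. Pnpla2 overlapped in the deposited values, where doxorubicin replicates 1 and 3 lay below all vehicle libraries. These are descriptions without a test, and 0.1 is the smallest exact permutation p for 3 libraries against 3.

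**Figure D5:**
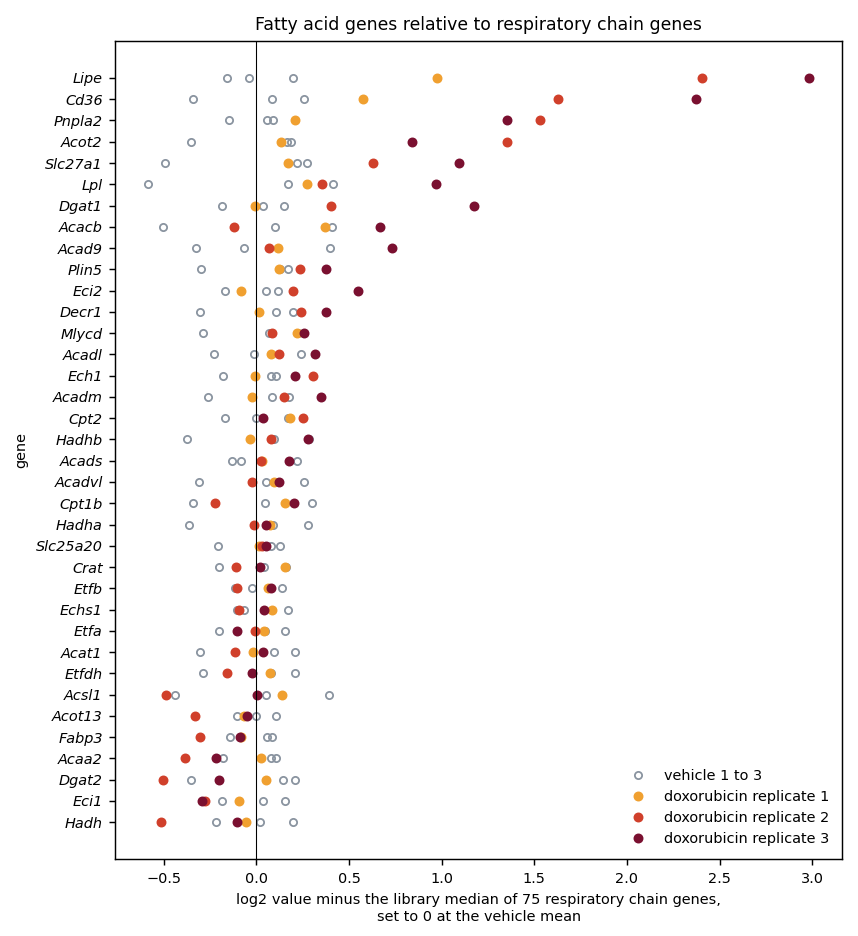
Each point is a library, placed by the gene's log2 value minus the median of 75 respiratory chain genes in that library, with the vehicle mean of each gene set to 0. Doxorubicin and vehicle points mix for most genes, and Lipe, Cd36 and Pnpla2 at the top have every doxorubicin point to the right.

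Other genes of fatty acid handling, from a list of 70 of which 66 were tested, were more mixed. Doxorubicin libraries were all lower in 22 and all higher in 11 of the 66, against 22.6% and 19.2% of all genes tested. The median log2 difference was -0.24, and 0 passed limma's test in either direction. Without doxorubicin replicate 1, 23 fell and 14 rose, against 21.8% and 19.3% of all genes. The smallest unadjusted p among lower genes were those of Abhd5, the coactivator of Pnpla2 (572 ± 40.9 to 341 ± 44.5 normalized counts, log2 difference -0.75, limma adjusted p 0.086), the acyltransferase Agpat2 (-0.74) and the droplet protein Plin3 (-0.73). Among higher genes they were Acsl5 (204 ± 33.6 to 386 ± 85.3, 0.91), Gpihbp1 (763 ± 208 to 2384 ± 987, 1.58) and Fabp4 (1.18). Gpihbp1 is the endothelial anchor of lipoprotein lipase. The log2 ratio of Lpl to Gpihbp1 was 6.06 ± 0.70 in vehicle and 4.08 ± 0.90 in doxorubicin libraries, without overlap (exact two-sided permutation p 0.1, adjusted 0.267 over 8 ratios). The endothelial marker list was higher after doxorubicin, and the part of endothelial cells in this ratio was not tested.

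Cpt1a, the liver form of the outer membrane transferase, differed in the direction opposite to Cpt1b. Its values were 446, 554 and 435 (vehicle) and 585, 778 and 751 (doxorubicin). Every doxorubicin library was higher, with a log2 difference of 0.56 (SE 0.18, limma adjusted p 0.0865) that passed without doxorubicin replicate 1 (0.68, adjusted p 0.0107). The log2 ratio of Cpt1b to Cpt1a went from 3.45 ± 0.23 to 2.00 ± 0.73 (SD, n = 3, exact two-sided permutation p 0.1, adjusted 0.267). Endothelial and macrophage marker lists were higher after doxorubicin, and the part of those and other cells in the Cpt1a values and this ratio was not tested. Pdk4, the kinase that shuts off pyruvate oxidation when fat is burned, had values of 3379, 6254 and 2100.1 in the vehicle hearts and 5233, 14722 and 3064 in the treated hearts. As with Acot2 and Pnpla2, doxorubicin replicate 2 was the highest library, and the difference of 0.80 (limma adjusted p 0.365) did not exceed the spread. Ucp3, a mitochondrial carrier induced by fatty acids, overlapped as well (-0.08, adjusted p 0.94).

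Of 22 regulators of the pathway, 18 had negative differences and 4 positive ones (median -0.54). Doxorubicin libraries were all lower in 7 and all higher in 2 of the 22, against 22.6% and 19.2% of all genes, and 0 passed with all 6 libraries. Ppara, the nuclear receptor that drives fatty acid oxidation, had values of 656, 828 and 899 with vehicle against 595, 266 and 266 with doxorubicin. Doxorubicin replicates 2 and 3 were nearly equal and far below the vehicle range, and replicate 1 lay just under it. Differences were -1.18 for Ppara, -1.01 for Esrra, which encodes the receptor ERR-alpha, and -1.10 for Sirt3, the mitochondrial deacetylase (limma adjusted p 0.086, 0.086 and 0.086), and each fell past the threshold without doxorubicin replicate 1. Ppargc1a, the coactivator PGC-1alpha, overlapped at -0.76 (limma adjusted p 0.111), and it too fell past the threshold without doxorubicin replicate 1 (-1.06, adjusted p 0.00523). The higher regulators with the smallest unadjusted p were Pparg (127 ± 28.9 to 328 ± 107 normalized counts, 1.33), Nr2f2 (0.96) and the AMP kinase subunit Prkaa1 (0.23). Nr2f2 overlapped through doxorubicin replicate 1. Pparg is also expressed in endothelial cells and macrophages and Nr2f2 in venous endothelium, and the part of those cells in these values was not tested.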

How the data were processed

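RNA was sequenced from 3 vehicle and 3 doxorubicin cardiomyocyte preparations, 3 mice per group. Per the submitters' processing notes, STAR 2.6.1a and Salmon were used with mm10. The series' design text names the RNAseq Alignment application 2.0.2 and RNA-seq Differential Expression 1.0.1. What the authors deposited is a normalized count signal per gene, at least 0 and not whole. How it was counted and normalized, and whether by strand, is not given in the sources used here. Without strand, reads of overlapping genes cannot be told apart, and 14 of the 36 genes overlap another RefSeq gene.

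Groups came from the sample titles. Values were used as deposited, 2 rows with a repeated name were left out, and 0 value columns were unused. Values became log2(value + 1), and limma 3.58.1 (R 4.3.3) was fitted to the 12475 genes with a mean of at least 10 (empirical Bayes with trend, two-sided, Benjamini-Hochberg over all genes, threshold 0.05); all 36 members passed that filter. The fold scale understates changes of low genes. The limma step was run on simulated data with the vehicle spread in both groups. It does not show how the test behaves with the wider spread of the doxorubicin libraries. Ratios of 8 gene pairs were compared by exact permutation. Figures used matplotlib 3.10.9.

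Members and lists were chosen with earlier results of these data known. Besides all members, the text names the 3 genes with the smallest p in each direction of 2 further lists, with Pdk4, Ucp3, Cpt1a, Ppara, Ppargc1a and Esrra. The gene pairs, Acot1, the background of genes with a mean of at least 1000 and the interaction with Xist or Y-linked class were chosen after the data were seen.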

Additional observations from a re-analysis of the deposited data

Results flagged for a closer look

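Acot2 and Pnpla2 were taken up because their direction differed between the libraries that contained Xist (vehicle replicate 3, doxorubicin replicates 1 and 3) and those that contained Y-linked transcripts (vehicle replicates 1 and 2, doxorubicin replicate 2). The log2 difference of Acot2 was -0.55 in the former and 0.63 in the latter. For Pnpla2 the values were -0.18 and 0.77. In each gene every doxorubicin library of a class lay on the same side of every vehicle library of that class. Each class sets a single library against the rest, so such separation is easily met. The share of all genes with it was not computed. The interaction term fitted with limma was 1.18 for Acot2 and 0.94 for Pnpla2, and neither passed (adjusted p 0.9997 for both). The Y-linked class held a single doxorubicin library and the Xist class a single vehicle library, so class and library cannot be told apart. For comparison, Cpt1b was -0.99 and -0.88 in the same classes, Hadh -1.15 and -1.22, and Lipe 1.27 and 1.52.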

How the results depend on the processing

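With all 6 libraries at equal weight, 0 members and 0 genes passed at pseudocounts of 0.5 and 8, without a filter, with a minimum mean of 50, with equal totals, quantile normalization, no trend, robust moderation or a covariate for Xist or Y-linked class. Library weights gave 28 members lower and 1 higher, with 1953 genes higher and 2318 lower, and an adjusted p under 0.10 gave 24 and 1 members with 1382 genes higher and 1639 lower. Leaving out each library in turn gave 0 to 29 members lower, 0 to 1 higher, 0 to 2409 genes higher and 0 to 2718 lower, and the upper values come from leaving out doxorubicin replicate 1. Leaving out doxorubicin replicate 2 gave 1 gene lower and 0 members. The number of members with a negative difference ran from 32 to 34, and the median from -0.54 (equal totals, which moved the median of all genes to 0.29) to -1.04 (without doxorubicin replicate 1). Members apart on the lower side numbered 24 (quantile normalization) to 32, and on the higher side 1 to 2 when a library was left out, and 2 with equal totals or quantile normalization. The share of all genes apart was not computed for these settings. Acot2 changed sign with equal totals (0.14), library weights (0.11), the class covariate (0.041) and without doxorubicin replicate 3 (0.14), Lpl with quantile normalization (0.84) and Pnpla2 without doxorubicin replicate 2 (-0.26). With a library left out, Acot2 ran from -0.56 to 0.14 and Pnpla2 from -0.26 to 0.28. The cause was not tested. The labels do not say that equal replicate numbers mark a shared litter or day, and the deviations of same-numbered libraries from their group means had correlations of -0.13, 0.03 and -0.09. A fit with the replicate number as a block gave 0 members and 0 genes, with a median of -0.84 and 33 negative members. Depth limits Dgat1 most, at about 65.9 reads in doxorubicin replicate 3.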

Other observations

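Values of 7 genes that make or modify fatty acids, chosen after they were seen, are given with no test of the 7 as a set. Because of that choice, the limma p-values of the single genes are descriptions. Acaca, the cytosolic acetyl-CoA carboxylase that starts fatty acid synthesis, had values of 133, 148 and 159.9 (vehicle) and 174, 237 and 259.5 (doxorubicin). Every doxorubicin library was higher (log2 difference 0.58, limma adjusted p 0.0878), the opposite direction to its mitochondrial counterpart Acacb (-0.63). The elongases Elovl1, Elovl5 and Elovl6 were higher in every doxorubicin library, by 0.66, 0.75 and 1.03, and Elovl6 was low at 7.10 to 18.8 normalized counts. The desaturase Scd1 had values of 134, 89.6 and 78.4 in the vehicle hearts and 122, 586 and 305 in the treated hearts, with doxorubicin replicate 1 inside the vehicle range. Fasn, fatty acid synthase, differed by -0.06 and the desaturase Scd2 by 0.53 (limma adjusted p 0.254), both with overlap. None of these 7 genes passed limma's test with all 6 libraries, and without doxorubicin replicate 1 Acaca, Elovl1, Elovl5 and Scd1 passed, in a fit where 19.3% of all genes rose.

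Oxct1 and Plin2 were likewise chosen after their values were seen. Oxct1, which lets the heart use ketone bodies, had values of 10601, 11786 and 12892 with vehicle against 8938, 3990.0 and 3068 with doxorubicin, lower in every doxorubicin library (-1.29, limma adjusted p 0.0863). Plin2, a droplet coat protein, was highest in doxorubicin replicate 2 like Acot2, Pnpla2 and Pdk4, with values of 468, 478 and 399.9 (vehicle) and 459, 1147 and 643 (doxorubicin).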
